A study of Mus musculus with 12 samples.

Results

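RNA polymerase II (Pol II) in the mouse duodenum was looked up at 10 genes of iron uptake, storage and export. Iron absorption itself was not measured. The genes were chosen by a list of names: Slc11a2, Cybrd1, Slc40a1, Heph, Tfrc, Fth1, Ftl1, Hmox1, Epas1 and Ireb2. Of these, 8 were among the 6429 genes of both tables of comparisons that the authors deposited. Cybrd1 (duodenal cytochrome b, the ferric reductase of the brush border) and Hmox1 (heme oxygenase, which frees iron from heme) were not among those genes, so no Pol II value is given for either. All 10 genes had windows in the authors' count files, 17 promoter windows and 17 gene body windows in all.

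Pol II binding was measured by chromatin immunoprecipitation and sequencing in epithelium of the duodenum, separated on a 70 µm filter into villi, which stayed on top, and crypts, which passed through. The labels list 3 Pol II libraries each for wild-type (WT) villus, WT crypt and villus of mice labelled Hnf4 alpha and gamma double knockout (DKO), with 1 input library for each. WT mice were given the oil vehicle and their tissue 35 minutes in 3 mM EDTA. Mice labelled DKO received tamoxifen at 50 mg/kg/day for 2 days and were killed 1 day later, and their tissue had 25 minutes in EDTA, so genotype, tamoxifen and EDTA time cannot be told apart. The labels used here name no promoter driving a recombinase, no floxed allele, and no strain, sex or age, and they do not say whether libraries of a group came from separate animals. Crypts were collected from WT mice only.

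Dietary iron enters the enterocyte as ferrous iron through the brush border transporter DMT1 (Slc11a2) after reduction by Cybrd1. Inside the cell it is held in ferritin, a shell of heavy (Fth1) and light (Ftl1) chains, or leaves across the basolateral membrane through ferroportin (Slc40a1), where hephaestin (Heph) oxidises it for loading on transferrin. Dividing crypt cells take iron from the blood through the transferrin receptor (Tfrc). The factor HIF-2alpha (Epas1) switches on transcription of uptake and export genes when iron or oxygen is low. Iron regulatory protein 2 (Ireb2) acts on the messenger RNAs of ferritin, Tfrc and others, a step that Pol II binding does not measure.

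Promoter sequence was at hand for 5 of the 10 genes in the RefSeq table (GRCm38.p6). The 250 bases before the start are shown for Ftl1, Fth1 and Tfrc, since Pol II at these genes changed in both deposited comparisons, the ferritin chains one way and Tfrc the other. Capitals mark matches to the motifs searched on both strands, here the core of the hypoxia response element. That core was searched as GCGTG and, in a further form, as ACGTG. A match on the opposite strand to the first form reads CACGC here. The capitals that end the Tfrc stretch open a match to the other form that runs on past the start. The stretches lie at chr7:45459887-45460136 (minus strand), chr19:9982396-9982645 (plus strand) and chr16:32608646-32608895 (plus strand), each written 5′ to 3′.
Ftl1: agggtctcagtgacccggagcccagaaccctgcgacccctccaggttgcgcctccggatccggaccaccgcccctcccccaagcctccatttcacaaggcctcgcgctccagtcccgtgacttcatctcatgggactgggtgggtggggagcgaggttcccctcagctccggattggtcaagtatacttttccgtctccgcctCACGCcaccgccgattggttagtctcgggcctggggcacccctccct
Fth1: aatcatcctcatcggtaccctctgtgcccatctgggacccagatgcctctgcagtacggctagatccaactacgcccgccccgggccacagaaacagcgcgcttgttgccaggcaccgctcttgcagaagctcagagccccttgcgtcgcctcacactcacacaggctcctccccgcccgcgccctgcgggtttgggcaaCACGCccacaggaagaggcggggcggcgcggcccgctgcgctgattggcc
Tfrc: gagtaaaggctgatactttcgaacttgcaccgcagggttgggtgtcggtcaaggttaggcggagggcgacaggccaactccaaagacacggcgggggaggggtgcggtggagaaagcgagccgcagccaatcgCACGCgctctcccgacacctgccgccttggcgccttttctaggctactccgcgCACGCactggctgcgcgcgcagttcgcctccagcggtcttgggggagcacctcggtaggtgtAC

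With the first transcribed base as position 0, the match in the Ftl1 promoter began at position -47 and that in the Fth1 promoter at position -50. At the start shown, Tfrc had matches at -117 and -64, and an ACGTG that began at -2 and ran across the start. Its other start had ACGTG at -228 and GCGTG at -134 and -42, and Cybrd1 had GCGTG at -161. GCGTG was present in 32.4% of the 32851 promoter windows of 300 bases in the RefSeq table, and ACGTG in 19.6%. The HNF4 motifs CAAAGTCCA (0.475% of all windows), CAAAGTTCA (0.390%) and AGTCCA (14.1%) had no match in the 7 windows of the 5 genes, nor did the antioxidant response element TGACNNNGC (12.4%). TATAAA, found in 13.6% of windows, occurred in the Ftl1 window at position 17 and in that of the noncoding Fth1 transcript NR_073181 at -124. A match describes these letters and is no measure of binding.

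The authors' count windows show where Pol II reads were collected around these genes, in mm9 coordinates. Slc11a2 lay on chromosome 15 on the minus strand, with 3 transcripts sharing 1 promoter window from 100253185 to 100253586. That window overlapped the promoter window of Gm5475 on the plus strand. Heph, on chromosome X, had 4 transcripts from 2 starts, and windows of all 4 overlapped those of Hsf3 on the opposite strand. Fth1, on chromosome 19, had a coding transcript with a promoter window from 10057036 to 10057437 and a noncoding one with a window from 10054990 to 10055391. The window of the single Ftl1 transcript ran from 52714955 to 52715356 on chromosome 7, and that of Slc40a1 from 45982138 to 45982539 on chromosome 1. Tfrc had 2 starts on chromosome 16, with windows beginning at 32608882 and 32609108. Epas1 (chromosome 17, from 87153104 to 87153505) and Ireb2 (chromosome 9, from 54711462 to 54711863) each had 1 promoter window and no overlap with another gene.

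Gene body windows began 350 bp inside the transcript for genes on the plus strand, but 350 bp upstream of the start for genes on the minus strand. All 21190 minus-strand transcripts with both windows had a gene body window that held the whole promoter window, against 0 of 19858 on the plus strand. Slc11a2, Slc40a1 and Ftl1 are the minus-strand genes here. The tables of comparisons do not state which window was counted, so whether this touches their values was not tested.

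**Figure D1:**
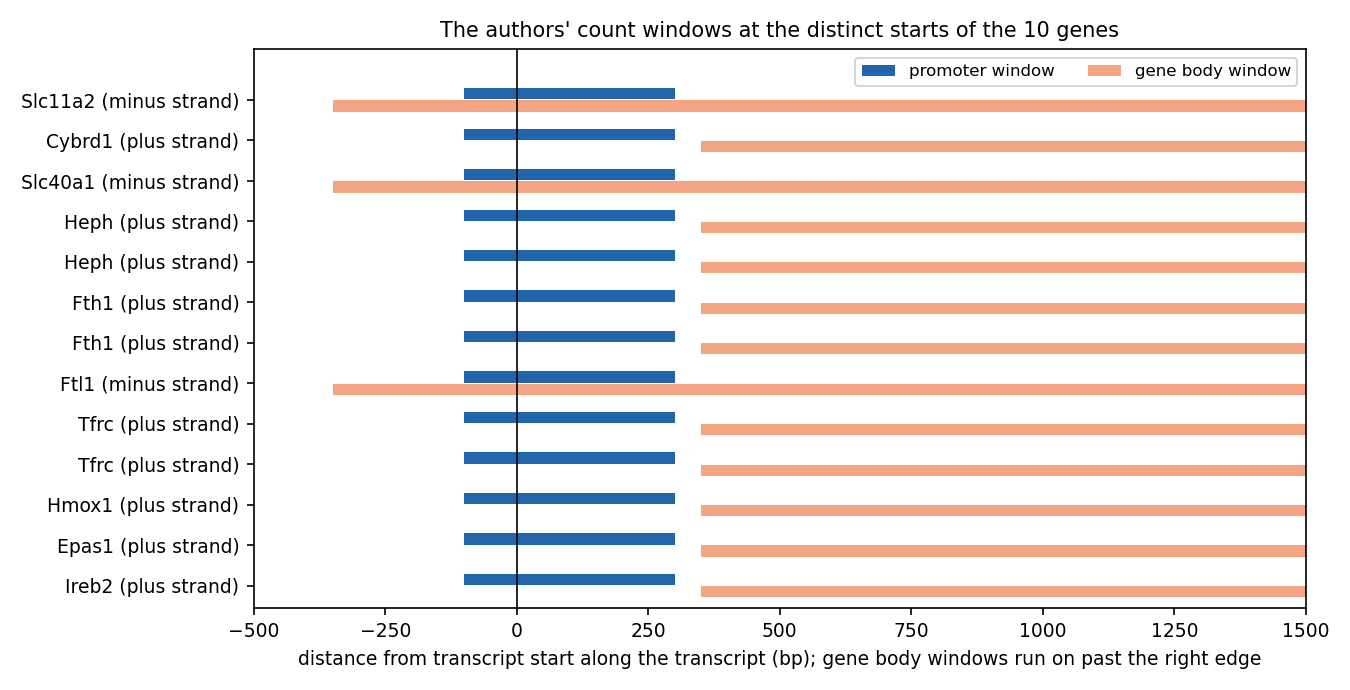
Promoter windows (blue) and gene body windows (orange) at each distinct start of the 10 genes, by distance from the transcript start in bp along the transcript, with bars ending at the right edge cut there. The gene body windows of Slc11a2, Slc40a1 and Ftl1 begin 350 bp before the start and cover the promoter window, and those of the other genes begin after it.

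For each gene the deposited tables list the mean Pol II signal over the libraries, in counts scaled by size factors. Beside it stand a log2 fold change, its standard error (SE, after ±) and a DESeq2 adjusted p. Signs follow the tables' names, so a positive value means more signal in WT villus. A gene is said to rise or fall where its adjusted p is under 0.05. No value per library is used, because the columns of the count files carry no names. Mean levels per group were back-calculated from that mean and both fold changes under the assumption that the 3 groups count equally, and they carry no error. In bulk epithelium, more cells with an active gene and more Pol II per cell cannot be told apart. Levels are not compared between genes, since the length counted is not known.

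The targeted genes did not lose Pol II in the libraries labelled DKO. For WT against labelled-DKO villus, the authors' deposited table lists a log2 fold change of -0.54 ± 0.14 for Hnf4a (adjusted p 4.84e-04) and -1.45 ± 0.22 for Hnf4g (adjusted p 7.81e-10), both higher in the libraries labelled DKO. Which exons the knockout removes is not given in the labels, so Pol II over these genes may not check the labels, and directions between genotypes rest on the table's name. Of 12 enterocyte markers 11 were tested, and all 11 were higher in WT villus than in WT crypt (median 1.55) and than in labelled-DKO villus (median 2.29). Apoa1 was the enterocyte marker not tested. Summed over the 11 tested markers, rebuilt signal was 15183 in WT villus, 5463 in WT crypt and 4819 in labelled-DKO villus. Slc5a1 alone gave 5083 of the WT villus sum. This sum and those below lean on the genes with most signal, and the length counted per gene is not known. Markers of other cells were covered thinly. The tables held 2 of 16 immune genes (Cd68 and Cd74), 1 of 12 proliferation genes (Pcna), 4 of 11 crypt stem genes, 7 of 12 secretory genes, and 0 of 11 erythroid and 0 of 12 mesenchyme and endothelium genes. In the authors' deposited tables Pcna, a replication factor, was lower in villus than crypt (-0.95 ± 0.20) and in WT than labelled-DKO villus (-0.62 ± 0.20), the directions Tfrc also took. Cd68, a macrophage marker, had -0.58 ± 0.23 and -1.18 ± 0.23, and Cd74, an antigen presentation gene, had 0.72 ± 0.24 and 1.33 ± 0.24, all called in the authors' deposited tables. Of the 7 secretory genes, 4 were higher and 2 lower in villus than crypt, and 0 were higher and 3 lower (Agr2, Spink4 and Clca1) in WT than labelled-DKO villus. Of the 4 crypt stem genes, 1 was higher and 2 lower in villus than crypt, and 1 was higher and 1 lower in WT than labelled-DKO villus, with Lgr5, Olfm4, Ascl2 and Smoc2 not among the genes tested. Beside these marker counts, 18.6% of all genes were higher and 18.8% lower in villus than crypt. Between genotypes, 22.4% of all genes were higher and 29.5% lower in WT than labelled-DKO villus. Summed rebuilt signal in WT villus, WT crypt and labelled-DKO villus was 345, 349 and 429 for the immune genes. In the same order it was 3088, 1966 and 3412 for the secretory genes, and 893, 1013 and 945 for the crypt stem genes. The part of these markers in the iron gene results was not tested.

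Between WT villus and WT crypt, 4 of the 8 iron genes changed, against 37.4% of all genes in the authors' deposited table. Slc11a2, Fth1 and Ftl1 were higher in villus (18.6% of all genes were), and Tfrc was higher in crypt (18.8% of all genes were). The ferritin chains and Tfrc moved most, by about the same size in opposite directions, while Slc40a1, Heph, Epas1 and Ireb2 did not pass the test. The median of the 8 log2 fold changes was 0.34, and that of all genes was -0.04.

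Against labelled-DKO villus, 6 of the 8 genes changed, with 51.9% of all genes changed in the authors' deposited table. Slc11a2, Heph, Fth1 and Ftl1 were higher in WT villus (22.4% of all genes), and Tfrc and Epas1 were higher in labelled-DKO villus (29.5% of all genes). Slc40a1 and Ireb2 did not pass. The median over the 8 genes was 0.61, beside -0.08 over all genes. The WT villus libraries enter both comparisons, so a gene's pair of values is not independent.

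Labelled-DKO villus was set against WT crypt by subtracting one deposited log2 fold change from the other. The SE used is the root of the summed squares, an upper limit because the shared WT villus libraries can only lower it. In this indirect comparison 3 of the 8 genes passed (13.6% of all genes), with Epas1 higher in labelled-DKO villus (6.41% of all genes) and Slc11a2 and Fth1 lower (7.19% of all genes). The median over the 8 genes was -0.32, and over all genes 0.0026.

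**Figure D2:**
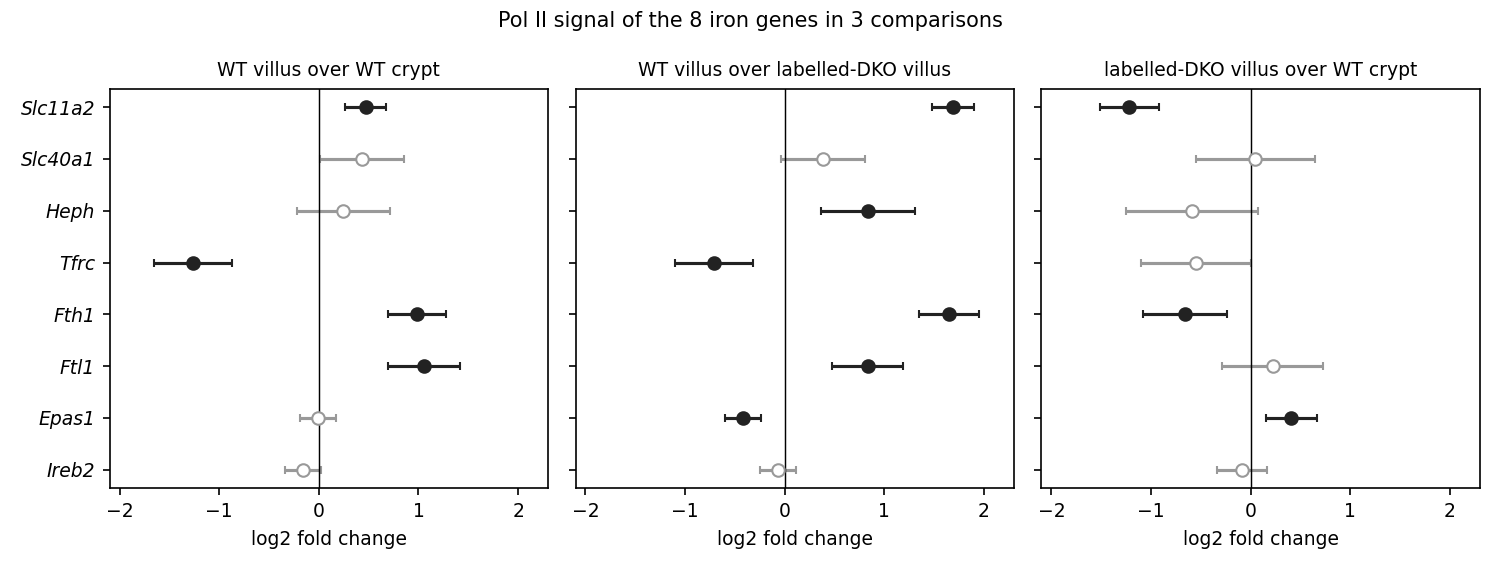
Log2 fold change of Pol II signal for the 8 iron genes in WT villus over WT crypt, WT villus over labelled-DKO villus, and labelled-DKO villus over WT crypt. Points are estimates, bars 95% intervals, and filled points passed an adjusted p of 0.05. Slc11a2 and Fth1 lie farthest to the right in the middle panel, at 1.69 and 1.65, and Tfrc lies to the left in all 3 panels.

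Slc11a2, the apical iron transporter, and Fth1 had the largest genotype differences of the 8 genes, and their intervals overlapped. Its rebuilt mean signal was 392 in WT crypt, 543 in WT villus and 169 in labelled-DKO villus. It was therefore highest in WT villus and lowest in labelled-DKO villus, below the crypt. The log2 fold change of villus over crypt in the authors' deposited table was 0.47 ± 0.11 (adjusted p 7.36e-05), a 1.38-fold rise with a 95% interval of 1.20 to 1.60. The value of WT over labelled-DKO villus in the authors' deposited table was 1.69 ± 0.11 (adjusted p 1.92e-52). Labelled-DKO villus thus had 0.311-fold the WT villus signal (95% interval 0.268 to 0.360). By size it stood at rank 143 from the top among the 6429 genes. Labelled-DKO villus had 0.43-fold of the crypt signal (95% interval 0.35 to 0.53), a log2 difference of -1.22 ± 0.15 with a Wald adjusted p of 1.93e-13. Gm5475, whose promoter window overlaps that of Slc11a2 on the other strand, had values of 0.73 ± 0.18 (adjusted p 3.98e-04) and 1.38 ± 0.19 (adjusted p 4.44e-12) in the authors' deposited tables. Counting of the windows recorded no use of strand, so reads where the promoter windows overlap count for both genes there. The gene body windows of Slc11a2 overlapped no gene body window of Gm5475. Which window gave the values above is not stated, so whether shared reads touch them was not tested.

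The export pair behaved less evenly. Ferroportin (Slc40a1) had a rebuilt mean signal of 157 in WT crypt, 212 in WT villus and 163 in labelled-DKO villus. Its values in the authors' deposited tables were 0.43 ± 0.21 for villus over crypt (adjusted p 0.0995) and 0.38 ± 0.21 for WT over labelled-DKO villus (adjusted p 0.119). Neither passed, and the 95% intervals, 1.01 to 1.81 and 0.98 to 1.75 as folds, allow a change of up to 1.8-fold. For hephaestin, the multicopper ferroxidase, the rebuilt mean signals were 556 in WT crypt, 659 in WT villus and 370 in labelled-DKO villus. Villus and crypt were not told apart at Heph in the authors' deposited table (0.25 ± 0.24, adjusted p 0.450). Heph fell in the labelled-DKO villi, to 56.1% of the WT villus signal, as the authors' deposited table gives 0.83 ± 0.24 for WT over labelled-DKO villus (adjusted p 0.00153). Against crypt the labelled-DKO value of Heph was -0.59 ± 0.34 (Wald adjusted p 0.280). The SE of Heph was the largest of the 8 genes in the deposited comparisons, and the windows of its transcripts overlap those of Hsf3, which is not among the genes tested.

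Tfrc, the receptor for iron-loaded transferrin, had more signal in crypt than in villus, the opposite of Slc11a2 and the ferritin chains. Pcna, the only gene tested of 12 proliferation genes, moved the same way in both deposited comparisons, and a link was not tested. The rebuilt mean signal of Tfrc was 401 in WT crypt, 167 in WT villus and 274 in labelled-DKO villus, with labelled-DKO villus between the other groups. Crypt had 2.40-fold the signal of villus (95% interval 1.83 to 3.14), from a log2 fold change of -1.26 ± 0.20 in the authors' deposited table (adjusted p 4.08e-09). Tfrc ranked 13 from the bottom of 6429 genes by this change. Labelled-DKO villus had 1.64-fold the signal of WT villus (1.25 to 2.14), since the authors' deposited table lists -0.71 ± 0.20 (adjusted p 0.00108). The difference of labelled-DKO villus from crypt was -0.55 ± 0.28 and did not pass with the largest SE (Wald adjusted p 0.202). It passed with a smaller, rebuilt SE (Wald adjusted p 0.0207). That SE comes from noise fitted over all genes and assumes WT villus noise to be the mean of the other groups' noise. This assumption was not tested.

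Both ferritin chains rose from crypt to villus and were lower in labelled-DKO than in WT villus. Fth1, the heavy chain with ferroxidase activity, had a rebuilt mean signal of 107 in WT crypt, 212 in WT villus and 67.8 in labelled-DKO villus. Ftl1, the light chain that aids mineral formation, had 137, 285 and 160 in the same order. Both were highest in WT villus, and only the heavy chain was called lower in labelled-DKO villus than in crypt. The folds of villus over crypt were 1.98 for Fth1 (95% interval 1.62 to 2.43) and 2.08 for Ftl1 (1.62 to 2.67), from log2 values of 0.99 ± 0.15 (adjusted p 1.24e-09) and 1.05 ± 0.18 (adjusted p 1.59e-07) in the authors' deposited table.

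WT over labelled-DKO villus gave 1.65 ± 0.15 for Fth1 (adjusted p 9.52e-26) and 0.83 ± 0.18 for Ftl1 (adjusted p 2.30e-05) in the authors' deposited table. The 95% intervals of these folds, 2.55 to 3.85 for Fth1 and 1.39 to 2.28 for Ftl1, do not overlap, though the difference between the genes was not tested. Labelled-DKO villus stood at 63.2% of the crypt signal for Fth1 (log2 -0.66 ± 0.21, Wald adjusted p 0.0197). For Ftl1 it stood at 117% (0.22 ± 0.26, adjusted p 0.698). The RefSeq table lists 2 pseudogenes named after each chain, and none was among the genes tested. Copies under other names were not searched for. Read pairs with a mapping quality under 30 were not counted, so reads shared with a copy may be missing and these values are uncertain to that extent.

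Of the regulators, Epas1 changed with genotype and Ireb2 with neither comparison. The rebuilt mean signal of Epas1 was 421 in WT crypt, 418 in WT villus and 559 in labelled-DKO villus, so the WT groups lay together and the labelled-DKO group above them. Epas1 had a villus over crypt value of -0.0090 ± 0.092 in the authors' deposited table (adjusted p 0.957), with a 95% interval of 0.88 to 1.13 as a fold. Labelled-DKO villus had 1.34-fold the WT villus signal (1.18 to 1.51), from -0.42 ± 0.09 in the authors' deposited table (adjusted p 1.83e-05). Against crypt it had 1.33-fold the signal (1.12 to 1.58, Wald adjusted p 0.0155). Ireb2 had rebuilt signals of 345 in WT crypt, 309 in WT villus and 324 in labelled-DKO villus. Its deposited values were -0.16 ± 0.09 (adjusted p 0.165) and -0.07 ± 0.09 (adjusted p 0.547) in the authors' deposited tables, and the 95% intervals hold changes of Ireb2 to 0.79 to 1.01 and 0.84 to 1.08 as folds.

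**Figure D3:**
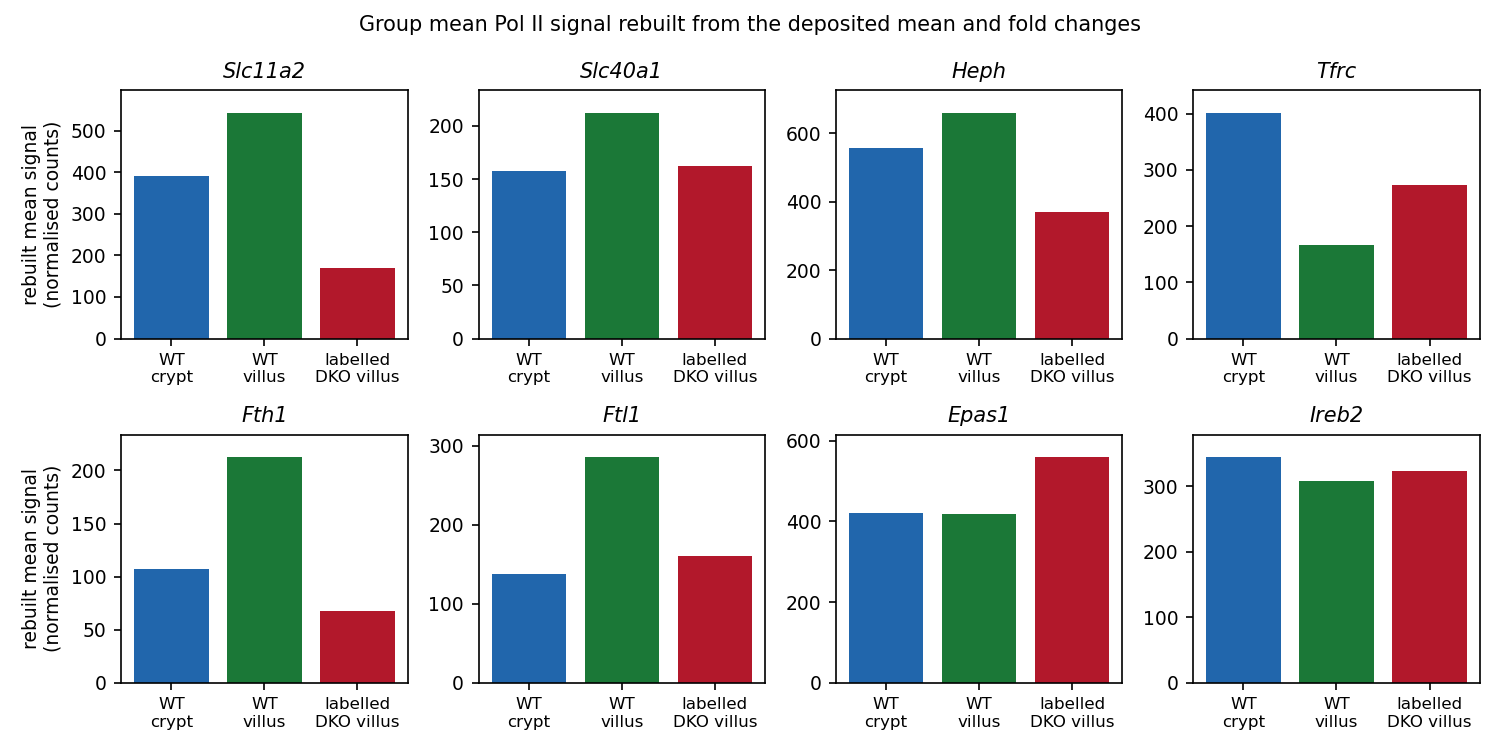
Mean Pol II signal of the 8 iron genes in WT crypt (blue), WT villus (green) and labelled-DKO villus (red), in size-factor-normalised counts rebuilt from the deposited mean and fold changes, with no error bars because the tables hold no group errors. Slc11a2, Heph and Fth1 have their lowest bar in labelled-DKO villus, Tfrc its lowest in WT villus, and Epas1 its highest in labelled-DKO villus.

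The genes most like each member were those of similar mean signal (0.5 to 2 times) with the nearest pair of log2 fold changes in the authors' deposited tables, so likeness rests on 2 comparisons that share libraries. For Slc11a2 these were Cyp2c66 (0.61 ± 0.10 and 1.67 ± 0.11), Cldn15 (0.64 ± 0.14 and 1.71 ± 0.15) and Pkig (0.67 ± 0.13 and 1.69 ± 0.13). Fth1 lay nearest to Plekhf1, Slc51a and Slc7a9, at distances of 0.032, 0.048 and 0.075 on the log2 scale. Ftl1 was nearest to Tmem120a, B230206H07Rik and Gapdh, at 0.0067, 0.070 and 0.071. Tfrc was nearest to Rpl27a, 1110038B12Rik and Snhg6, at 0.10, 0.10 and 0.13. Genes this near share the directions of their member because they were chosen by these same values.

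The lists of related genes that follow are small, and their counts stand beside the shares of all genes called, with no test of any list against the other genes. Of 28 further uptake and export genes 7 were tested, and the authors' deposited tables called 3 higher and 0 lower in villus than crypt, and 4 higher and 0 lower in WT than labelled-DKO villus (medians 0.32 and 0.26). Of all genes, 18.6% were higher and 18.8% lower in the first comparison, and 22.4% higher and 29.5% lower in the other. Slc46a1, the folate and heme transporter of the brush border, had 1.02 ± 0.17 (adjusted p 8.01e-08) and 1.04 ± 0.17 (adjusted p 9.17e-09) in the authors' deposited tables. The heme exporter gene Flvcr1 had 0.56 ± 0.19 and 1.01 ± 0.20, and Cyb561, which codes for a relative of Cybrd1, had 0.40 ± 0.12 and 0.05 ± 0.12 (the last not called, adjusted p 0.761). Tcn2, the vitamin B12 carrier transcobalamin, had 0.27 ± 0.13 (adjusted p 0.0991) and 0.91 ± 0.14 (adjusted p 2.00e-10), and was the gene of this list called lower in labelled-DKO villus than in crypt.

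Of 15 storage and delivery genes 6 were tested, with 3 called higher and 2 lower in villus than crypt and 2 each way between genotypes in the authors' deposited tables (medians 0.18 and 0.03). The shares of all genes were 18.6% and 18.8% for villus against crypt, and 22.4% and 29.5% between genotypes. The mitochondrial iron importers went in opposite directions there. Slc25a37 (mitoferrin 1) had 0.41 ± 0.09 (adjusted p 8.89e-05) and 1.07 ± 0.09 (adjusted p 1.53e-28), and Slc25a28 (mitoferrin 2) had -0.37 ± 0.12 (adjusted p 0.0111) and -0.90 ± 0.12 (adjusted p 7.70e-13). In labelled-DKO villus against crypt, Slc25a37 was lower (-0.66 ± 0.13, Wald adjusted p 1.90e-05) and Slc25a28 higher (0.53 ± 0.17, Wald adjusted p 0.0202).

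Of 19 heme metabolism genes 9 were tested, with 4 higher and 1 lower in villus than crypt, and 2 higher and 4 lower in WT than labelled-DKO villus in the authors' deposited tables (medians -0.02 and -0.39). Beside them, 18.6% of all genes were higher and 18.8% lower, and 22.4% higher and 29.5% lower, in the same order. Alas1, the first enzyme of heme synthesis, had 0.92 ± 0.13 and 1.09 ± 0.13 (adjusted p 5.43e-11 and 9.61e-16). The iron-sulfur cluster list had 11 of 21 genes tested, of which the authors' deposited tables called 1 higher and 2 lower in villus than crypt, and 1 higher and 3 lower in WT than labelled-DKO villus (medians -0.08 and -0.10), where 37.4% and 51.9% of all genes were called in either direction. Isca1, an assembly factor, was the gene called higher in WT villus in both (0.39 ± 0.08 and 0.21 ± 0.08). The mitochondrial chaperone gene Hspa9 was lower in both (-0.79 ± 0.16 and -0.63 ± 0.15).

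Of 15 iron and oxygen sensing genes 11 were tested, with 4 higher and 0 lower in villus than crypt, and 4 higher and 2 lower in WT than labelled-DKO villus in the authors' deposited tables (medians 0.11 and 0.10). In either direction, 37.4% and 51.9% of all genes were called. Egln3, a prolyl hydroxylase that marks HIF subunits for loss, had 0.58 ± 0.13 and 0.98 ± 0.13 (adjusted p 1.01e-04 and 5.46e-12). Hif1a, the sister gene of Epas1, had more signal in labelled-DKO villus (-0.57 ± 0.16, adjusted p 0.00102), and Mafk, a partner of NRF2, was higher in villus than crypt (0.71 ± 0.17, adjusted p 2.48e-04).

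Of 22 HIF target genes 14 were tested, with 6 higher and 0 lower in villus than crypt, and 7 higher and 3 lower in WT than labelled-DKO villus in the authors' deposited tables (medians 0.33 and 0.34). Among all genes the shares higher and lower were 18.6% and 18.8%, then 22.4% and 29.5%. Those with more signal in labelled-DKO villus were Ndrg1, a stress-response gene (-3.05 ± 0.30, adjusted p 8.08e-23), Ddit4, an inhibitor of mTORC1 (-1.29 ± 0.33, adjusted p 3.16e-04), and Kdm3a, a histone demethylase (-0.60 ± 0.10, adjusted p 2.77e-09). Loxl2, a lysyl oxidase, had 1.41 ± 0.14, Mxi1, a MYC antagonist, had 1.12 ± 0.10, and Pfkfb4, a regulator of glycolysis, had 1.03 ± 0.10, all higher in WT villus by the authors' deposited table. Vegfa led the villus over crypt values in the authors' deposited table at 1.26 ± 0.11 (adjusted p 8.78e-28).

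Of 17 NRF2 target genes, which share antioxidant control with the ferritins, 9 were tested. The authors' deposited tables called 5 higher and 1 lower in villus than crypt, and 6 higher and 2 lower in WT than labelled-DKO villus (medians 0.28 and 0.31), against 37.4% and 51.9% of all genes called in either direction. Abcc2, an apical conjugate exporter, had 1.67 ± 0.27 and 2.80 ± 0.27, while Gsta4, a glutathione transferase, had more signal in labelled-DKO villus (-1.58 ± 0.45, adjusted p 0.00121). Txnrd1, the cytosolic thioredoxin reductase, was the gene called lower in villus than crypt, at -0.11 ± 0.05 (adjusted p 0.0492). That call ended when all values were centred on the median of all genes (-0.066, adjusted p 0.268) and at an adjusted p under 0.01.

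**Figure D4:**
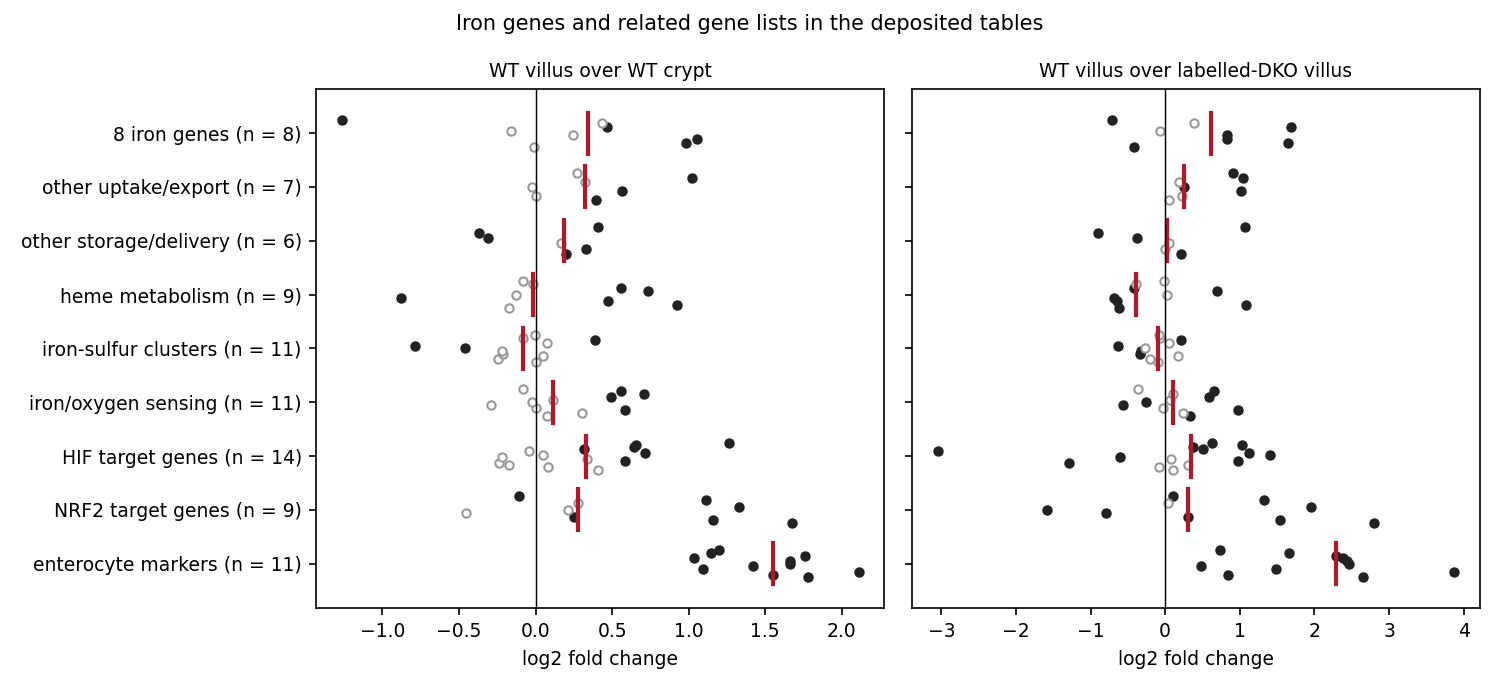
Log2 fold changes of the 8 iron genes, 7 related gene lists and the enterocyte markers in the deposited tables, with 1 point per gene (filled where the adjusted p is under 0.05) and a red bar at each list's median. Enterocyte markers lie to the right of 0 in both panels, with medians of 1.55 and 2.29, and the iron genes are spread from -1.26 to 1.05 on the left and from -0.71 to 1.69 on the right.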

How the data were processed

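Pol II libraries from 3 WT villus, 3 WT crypt and 3 labelled-DKO villus samples were aligned to mm9. Bowtie2 2.2.6, Picard, featureCounts and DESeq2 1.36.0 are named in the submitters' processing notes. The authors deposited, per the file headers, a mean signal (counts divided by size factors), log2 fold changes with their SE, a Wald score, p-values and adjusted p-values. These p-values equal Wald tests adjusted by Benjamini-Hochberg over 6429 genes. Windows were counted with featureCounts 2.0.3 (read pairs, mapping quality at least 30, duplicates ignored, all overlaps counted, no strand option), per the file headers. The 18 columns of counts carry no sample names and were used in no step, so depth per library and the planned edgeR tests are not given. Samples were grouped by title. From the tables, group means, 95% intervals and the labelled-DKO over crypt difference were computed with numpy 2.4.6 and scipy 1.17.1. The difference test was also run on simulated counts with independent libraries and known noise. That setting cannot check the test for the real libraries. The members, gene lists and tests were chosen with earlier results of these data known. Named genes are the members, the targeted genes and, per list and comparison, the called gene with the largest rise and fall (up to 3 each way for HIF targets and for other uptake and export). A heme metabolism gene that this rule names is not reported here. Genes near a member are the 3 nearest, for members called in both tables. Promoters are matched to RefSeq by symbol, and gene windows by accession (96.8% of promoter windows matched). P-values measure the spread between the libraries of the authors' fit, which may be technical.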

Additional observations from a re-analysis of the deposited data

How the results depend on the processing

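Of 128 recomputed values of the 8 genes, 106 kept their direction and call, 18 lost the call, 2 gained it and 2 changed sign. Values without a call could not lose one at the stricter settings, so the 106 include values that could not change. A mean signal of at least 100 removed none of the 8 genes, so there only the adjusted p could move. The sign changes came from centring on the median of all genes, at Epas1 between villus and crypt (0.033) and Ireb2 between genotypes (0.013), neither called. With a log2 fold change beyond 1, 2 genes passed in villus against crypt, 2 between genotypes and 1 in labelled-DKO villus against crypt. Tested against changes up to 0.5, the counts were 2 (Fth1 and Tfrc), 2 (Slc11a2 and Fth1) and 1 (Slc11a2). These settings ask for larger changes, so fewer genes can pass. An adjusted p under 0.01 left 1 gene (Slc11a2) in labelled-DKO villus against crypt. The rebuilt SE, which rests on an untested assumption about WT villus noise, gave 5, adding Heph (Wald adjusted p 0.0486) and Tfrc. Of 394 values of the other named genes, 308 stayed as they were, called or not, while 81 lost their call and 5 gained one. These 308 also include values without a call, which could not lose one. Centring ended the call of Txnrd1 between villus and crypt (adjusted p 0.268). All other counts of the 8 genes under these settings equalled those of the report. Over all genes, an adjusted p under 0.01 left 1739, 2630 and 558 genes called, in the same order of comparisons. The limit of 1 left 285, 559 and 223, and the test against 0.5 left 252, 637 and 90. With the rebuilt SE 1923 genes were called in labelled-DKO villus against crypt. Centring moved the genes higher in WT villus to 1710 and those lower to 1422 between genotypes (from 1443 and 1895), and to 1356 and 951 between villus and crypt (from 1193 and 1210), with the calls of the 8 genes unchanged.

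No paired analysis was possible because replicate values are absent from the 2 tables of comparisons, and no count column has a name that ties it to a numbered replicate. For the same reason leaving out a replicate, other tools, size factors and count filters, and the promoter and gene body tests were not run.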
